A study of Mus musculus with 2 samples.

Results

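Cytosolic ribosomal protein genes encode the protein subunits of the ribosome that translates messenger RNA in the cytoplasm. They were taken by symbol (Rpl or Rps followed by a digit, with Rplp0, Rplp1, Rplp2 and Rpsa, and without pseudogene and S6 kinase symbols) and kept with at least 50 UMIs (unique molecular identifiers, 1 per captured RNA molecule) over all cells. Of 87 matching symbols among 27998 listed genes, 84 were kept, 50 named for the large and 34 for the small subunit. The other 3 were Rpl3l with 34 UMIs, Rpl39l with 6 and Rpl10l with 0. The kept genes nearest to the minimum were Rps19bp1 with 814 UMIs, Rpl7l1 with 1047 and Rps27l with 3124. The symbol rule also takes in Rps19bp1, which encodes a binding partner of Rps19 and not a ribosomal subunit protein.

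The study profiled blood mononuclear cells of female C57Bl/6 mice aged 10 weeks by 10x Chromium 3′ v2 single-cell RNA sequencing. One group carried the Mvk alleles V377I and del91 (mevalonate kinase, an enzyme of the pathway that makes sterols and isoprenoids), and the other was wildtype, Mvk+/+. In each group blood of 3 mice was pooled into 1 library, red cells were lysed, and DAPI-negative cells lacking Ter119, an antigen of red cells, were sorted. Genotype, pool of mice and library are the same split and cannot be told apart, and no test or p-value is possible.

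A ribosome has a small subunit, which reads the messenger RNA, and a large subunit, which joins the amino acids. Its proteins are made in matched amounts, and their mRNAs are among the most abundant of a lymphocyte. Most vertebrate ribosomal protein mRNAs begin with a C followed by a run of C and T bases (the terminal oligopyrimidine motif), through which the mTORC1 pathway and LARP1 control their translation and stability. T cells raise ribosome production when they are activated.

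The start of the mRNA is shown for 9 members, as bases 10 before to 20 from the annotated start (RefSeq, GRCm38.p6, 5′ to 3′ on the gene's strand). Capitals mark a C followed by at least 4 bases that are each C or T, with the C within 5 bases of the start on either side. Rps27 was the member with the most UMIs, and Rps6 (the S6 kinase substrate), Rplp2 (a stalk protein) and Rpl28 are examples with a long run. The 9 starts therefore do not show how common the run is among members. Rpl12 was the member with the lowest ratio of monocyte-like to naive-like T cells. Rps27l, Rpl22l1, Rpl36a and Rpl36al belong to the paralog pairs that differed between cell types.
Rps27: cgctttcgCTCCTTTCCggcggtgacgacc
Rps6: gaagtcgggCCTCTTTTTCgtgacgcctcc
Rplp2: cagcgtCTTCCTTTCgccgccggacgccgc
Rpl28: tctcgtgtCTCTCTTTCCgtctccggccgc
Rpl12: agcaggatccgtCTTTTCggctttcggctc
Rps27l: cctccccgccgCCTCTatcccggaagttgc
Rpl22l1: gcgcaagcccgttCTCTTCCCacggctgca
Rpl36a: cccaggcaccgcctataaacttccgttgcg
Rpl36al: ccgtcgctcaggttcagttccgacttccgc
These windows lie at chr3:90213629-90213658 (minus strand) for Rps27, chr4:86857348-86857377 (minus) for Rps6, chr7:141447641-141447670 (plus) for Rplp2, chr7:4792955-4792984 (plus) for Rpl28 and chr2:32961702-32961731 (plus) for Rpl12. Those of the paralogs lie at chr9:66946076-66946105 (plus) for Rps27l, chr3:28805498-28805527 (plus) for Rpl22l1, chrX:134585644-134585673 (plus) for Rpl36a and chr12:69184048-69184077 (minus) for Rpl36al.

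A run of this kind was found at 32 of 74 annotated member starts (43.2%) and in 30 of the 63 members with an entry (47.6%), while 21 members had no entry. Rps27l has a second annotated start, not shown, without the run. Over all genes it was found at 5610 of 32851 starts (17.1%). Read on the other strand, the same windows held it at 14.9% of the member starts and 20% of all starts. The median length of the run was 8 bases in members and 6 over all genes. Annotated starts can be several bases off, so no match says only that these letters are not in this window.

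After the cell filters 4121 mutant and 5092 wildtype cells were used, against 2000 targeted per library, with 9157759 and 11402169 UMIs and medians of 1956 and 2014.5 UMIs per cell. The libraries shared 28 cell barcodes. Mvk itself had 47 UMIs in mutant and 62 in wildtype cells (5.13 and 5.44 CPM, a gene's UMIs put on the same total in every group), and 3′ tag counts do not show which allele was read, so they do not check the genotype labels. Cells were clustered without the ribosomal protein genes and named from marker genes. Of 18 clusters 2 stayed unnamed, and 9 types had at least 50 cells in each library. The mutant library held 78 erythroid-like barcodes and the wildtype library 8, although Ter119-positive cells had been sorted out, and erythroid marker RNA was higher in every type of the mutant library (2420 to 11850 CPM over the 9 types, against 171 to 338 in the wildtype). Its part in the values below was not tested.

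The 84 genes, 0.3% of those listed, took 31.0% of all UMIs in mutant and 32.1% in wildtype cells. In barcodes with at most 20 UMIs, which hold free RNA, the share was 26.9% and 27.0%. The median member stood at 3324 CPM, and 78 of the 84 were at or above 1000 CPM in both libraries. The 10 highest members held 28.3% of all ribosomal protein UMIs. A 3′ tag counts each molecule 1 time, so CPM of these genes was not divided by length.

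Rps27, a zinc finger protein of the small subunit, was the highest with 14621 CPM in mutant and 14877 in wildtype cells. Rps19, a small subunit protein mutated in Diamond-Blackfan anaemia, followed with 10833 and 10418 CPM. Rpl13 (8959 and 9116) and Rps18 (8065 and 8196 CPM) were also among the 10 highest. Below them by the mean of both libraries were Rps29 (7906 and 8330), Rpl41 (8013 and 7803) and Rps14 (7546 and 7655 CPM). Rpl37a (7347 and 7600) and Rpl13a (6730 and 7150 CPM) were the lowest of these. The order of Rps29 and Rpl41 was not the same in the libraries.

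Levels of single members carry an uncertainty from near-identical copies. In the last 300 bases of the transcripts, 23 of the 83 members with a transcript sequence shared over 50% of their 98-base windows with another gene, and 19 shared none. The median level was 2664 CPM in the 23 and 3527 CPM in the others. Rps27 shared 50.8% of its windows, with Rps27rt (a retrotransposed copy that the rule counts as a member) among the genes it shares them with, and Rpl36a shared 100%. Rpl35 (95.1%), Rps12 (83.6%), Rpl10 (78.4%) and Rpl3 (67.0%) also shared most of theirs, and Rpl6l had no window to assess. The 16 listed entries with pseudogene symbols held 169625 UMIs, equal to 2.51% of the member UMIs, and were not added. Copies listed under other symbols are not in that figure. Unequal levels of single members therefore do not show unequal numbers of mRNA molecules where copies are shared.

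The share of UMIs from ribosomal protein genes differed widely between blood cell types and followed the same broad order in both libraries. Naive-like CD8 T cells had the highest share, 39.1% in the mutant (95% interval 39.0 to 39.1) and 40.7% in the wildtype library (40.6 to 40.7). Memory-like CD8 T cells followed with 37.7% and 37.1%, and naive-like CD4 T cells with 36.7% and 37.8%. The order of these 2 types was not the same in the libraries. B lineage cells marked by Zbtb32 had 31.5% in each library. The intervals are exact binomial (Clopper-Pearson) limits and cover counting error only.

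Lower shares were found in memory-like CD4 T cells (26.9% and 27.4%), B-like cells (26.3% and 27.5%) and a cluster marked by Cxcr6 (23.9% and 25.3%). The order of memory-like CD4 T and B-like cells was not the same in the libraries. NK-like cells had 19.4% and 16.8% and monocyte-like cells 16.8% and 17.7%, so their order was reversed between the libraries. Among types with fewer cells, interferon-high T cells had 36.0% and 37.5%, transitional-like B cells 19.6% and 19.0%, and basophil-like cells 18.0% and 19.2%. Erythroid-like barcodes had the lowest share of the types plotted, 4.58% in 78 mutant and 4.24% in 8 wildtype barcodes.

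**Figure D1:**
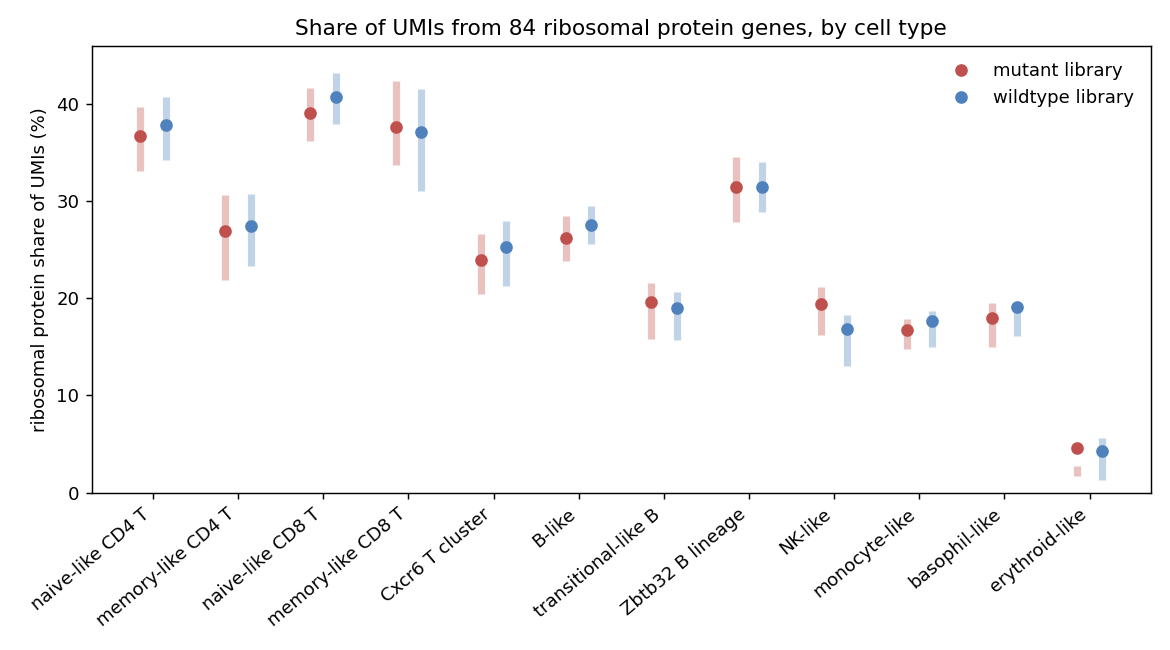
Share of UMIs from the 84 ribosomal protein genes (percent, vertical axis) in each cell type, mutant library in red and wildtype in blue. Points are the share of the summed UMIs and bars run from the lower to the upper quartile of the single cells; naive-like CD8 T cells are highest (39.1% and 40.7%) and erythroid-like barcodes lowest (4.58% and 4.24%).

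Single cells of a type spread around these shares. In naive-like CD4 T cells the middle of the cells lay between 33.1% and 39.7% in the mutant and between 34.2% and 40.7% in the wildtype library (lower and upper quartile). In monocyte-like cells the quartiles were 14.7% and 17.9% in the mutant and 15% and 18.7% in the wildtype library. The quartile ranges of naive-like CD4 T and monocyte-like cells did not overlap in either library, while those of naive-like CD4 and naive-like CD8 T cells did. Within the 9 types the Spearman correlations over cells between the share and the UMIs were above 0, though to unlike degrees. They ran from 0.03 in memory-like CD4 T cells of the mutant library, which is hardly a tendency, to 0.61 in memory-like CD8 T cells of the wildtype library. They describe points that share the UMI total. In the erythroid-like barcodes the correlation was negative, -0.25 over 78 mutant barcodes and -0.5 over 8 wildtype barcodes.

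Large and small subunit genes kept nearly the same balance in the 9 types. The large subunit genes held 52.9% of ribosomal protein UMIs in naive-like CD4 T cells of the mutant library, the lowest of the 9 types, and 56.7% in its NK-like cells, the highest. In the wildtype library the same types gave 53.0% and 56.2%.

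Fewer ribosomal protein molecules and more of all other RNA can both lower a share, and both quantities are given per cell. Naive-like CD4 T cells had a mean of 711 ribosomal protein and 1227 other UMIs per cell in the mutant library, and 788 and 1295 in the wildtype. Memory-like CD4 T cells had fewer ribosomal protein UMIs (555 and 584) and more other UMIs (1506 and 1547). In monocyte-like cells the ribosomal protein UMIs were 486 and 460 and the other UMIs 2408 and 2140. Memory-like CD8 T cells exceeded naive-like CD8 T cells in both quantities, with 1135 against 937 ribosomal protein and 1878 against 1461 other UMIs in the mutant library. In the wildtype library these values were 1157 against 1044 and 1960 against 1522.

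**Figure D2:**
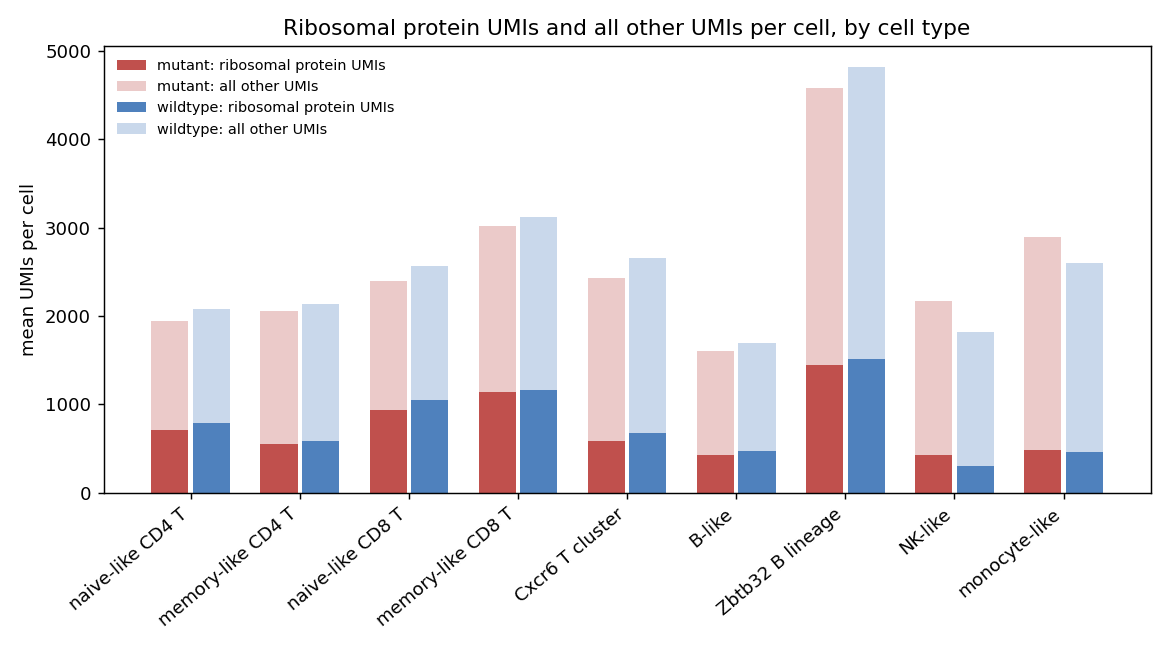
Mean UMIs per cell in the 9 cell types, split into ribosomal protein UMIs (solid) and all other UMIs (pale), mutant in red and wildtype in blue. Memory-like CD4 T cells have fewer ribosomal protein UMIs (555 and 584) and more other UMIs (1506 and 1547) than naive-like CD4 T cells.

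Memory-like CD4 T cells had a ribosomal protein share 0.735 times that of naive-like CD4 T cells in the mutant library (95% interval 0.727 to 0.742) and 0.725 times in the wildtype library (0.718 to 0.731). The memory-like CD4 T cluster was led by Nrp1, Maf, Tbc1d4, Rora and Ikzf2, with Ctla4 and Tnfrsf4 among its leading genes. Several of these are also genes of regulatory T cells, so the contrast may not be of memory cells alone. Foxp3 and Il2ra were not among the 30 leading genes. For single members, a gene was counted when its CPM differed by at least 1.2-fold in the same direction in both libraries. Of the 84 members, 66 were lower in memory-like CD4 T cells by this rule and 0 were higher. Over all measured genes 8.02% were lower and 30% higher. Among the 309 genes with at least 1000 UMIs in each library 33.3% were lower, namely 66 of 81 members and 37 of the 228 other genes, and 16.8% were higher, with 0 of the members. Over all genes the median log2 ratio was 0.23 in the mutant against 0.25 in the wildtype library, and over the members it was -0.43 in each.

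Rpl36a, a large subunit protein encoded on the X chromosome, was lowest, at 1555 CPM in memory-like against 2919 in naive-like CD4 T cells of the mutant library and 1520 against 3031 in the wildtype. These ratios were 0.53 (0.468 to 0.604) and 0.50 (0.446 to 0.562). Rps29, a short zinc-binding protein of the small subunit, had ratios of 0.59 and 0.58, and Rps20 of 0.61 and 0.60. Rpl29, with Rps27l and Rpl7l1 among the 3 members whose share of ribosomal protein UMIs was most raised, had 1306 against 1409 CPM in the mutant and 1486 against 1507 in the wildtype library, ratios of 0.93 and 0.99. As a share of ribosomal protein UMIs it was 1.26 and 1.36 times as high in memory-like cells. Rpl36a, Rps29 and Rps20 were lower on that scale as well, at 0.73 and 0.69, 0.80 and 0.80, and 0.83 and 0.83.

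In the CD8 lineage the difference was small. The ratio of the memory-like to the naive-like share was 0.964 (0.960 to 0.969) in the mutant and 0.912 (0.909 to 0.916) in the wildtype library. With types assigned cell by cell the direction was not kept: the ratio became 1.04 for mutant and 1.0 for wildtype cells. By the 1.2-fold rule 1 member was lower in both libraries (7.65% of all measured genes were, and 5.86% of those with at least 1000 UMIs). Under the alternatives 0 to 6 were, and the shares of all genes under these are not given here. Rps19bp1 and Rps27l were at least 1.2-fold higher (11.6% of all measured genes were, and 9.16% of those with at least 1000 UMIs, a level neither reached), with ratios of 1.30 and 1.21 for Rps19bp1 and 1.2 and 1.52 for Rps27l. Rps19bp1 had only 24 mutant and 42 wildtype UMIs in memory-like CD8 T cells. Rpl35a (0.84 and 0.83) and Rps3a1 (0.86 and 0.84) were among the lowest members by rule. The drop in share seen between the CD4 types was not matched between the CD8 types in either library, and this difference between lineages was not tested. The CD4 cluster also carried genes of regulatory T cells, so the memory-like types of the lineages are not matched.

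Memory-like CD8 T cells were not uniform. At a finer clustering, a cluster led by Gzmm and Cxcr3 had a share of 36.8% in 115 mutant and 38.8% in 262 wildtype cells. A cluster led by Gzmk, Cx3cr1 and Klrg1, genes of effector cells, had 20% in 12 mutant and 19.8% in 46 wildtype cells. Both values were nearer to those of NK-like cells (19.4% and 16.8%) than to those of the cluster led by Gzmm, and 12 mutant cells are few.

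The cluster marked by Cxcr6, a homing receptor of tissue and innate-like T cells, had a share 0.635 (0.628 to 0.643) and 0.644 (0.639 to 0.650) times that of all naive-like T cells. It is called the Cxcr6 T cluster, although no T cell marker was required for the name. By the 1.2-fold rule 77 members were lower (10.2% of all measured genes were) and 2 were higher (37.8% of all measured genes were). Among genes with at least 1000 UMIs 32.1% were lower (77 of 81 members and 86 of 427 others) and 25.6% higher (0 members). The members that were higher were Rps27l (1.47 and 1.60) and Rps19bp1 (1.82 and 1.92). In this cluster Rps27l had only 23 mutant and 32 wildtype UMIs and Rps19bp1 only 8 and 12. Rpl35 had 2837 against 6127 CPM in the mutant and 2637 against 6117 in the wildtype library. Rpl38 had nearly equal levels, 2932 against 3128 and 2948 against 3271 CPM, and was 1.48 and 1.40 times as high as a share of ribosomal protein UMIs.

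B-like cells had 0.697 (0.695 to 0.699) and 0.701 (0.699 to 0.704) times the share of naive-like T cells. The 1.2-fold rule counted 76 members as lower (17.7% of all measured genes) and 2 as higher (31% of all measured genes), Rpl7l1 and Rps19bp1. In B-like cells Rpl7l1 had 88 mutant and 97 wildtype UMIs and Rps19bp1 65 and 75. Among genes with at least 1000 UMIs 39.3% were lower (76 of 81 members and 196 of 611 others) and 19.1% higher (0 members). The stalk proteins Rplp0, Rplp1 and Rplp2, which recruit translation factors to the large subunit, were among the members with the lower ratios. Rplp0 had 3498 CPM in B-like against 7772 in naive-like T cells of the mutant library and 3414 against 8001 in the wildtype. Its ratios were 0.45 (0.437 to 0.463) and 0.43 (0.415 to 0.439), below those of Rplp1 (0.53 and 0.50) and Rplp2 (0.62 and 0.62). Rps27 differed less, with 15300 against 17719 CPM and 16455 against 17864 CPM. As a share of ribosomal protein UMIs Rps27 was higher in B-like cells, 1.24 and 1.31 times.

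Zbtb32-marked B lineage cells had a higher share than B-like cells, 1.2 times (1.19 to 1.2) in the mutant and 1.14 times (1.14 to 1.15) in the wildtype library. These cells also had the most UMIs of the 9 types, with medians of 4372 and 4441.5 per cell against 1515 and 1543 in B-like cells. By the 1.2-fold rule 32 members were higher (13.4% of all measured genes) and 2 lower (25.7% of all measured genes). Under median-of-ratios scaling, which moves all genes, 51 were higher and 0 lower, and the share of all genes under it is not given here. Among genes with at least 1000 UMIs 27.2% were higher (31 of 81 members and 35 of 162 others) and 18.1% lower. Rplp0 had 6710 CPM in the mutant against 6331 in the wildtype library, 1.92 and 1.85 times its level in B-like cells, and Rplp1 was 1.44 and 1.42 times as high. Rps12 was 1.81 and 1.65 times as high and Rpl3 1.53 and 1.45 times, and most windows of both are shared with other genes. The 2 lower members were Rps27 (0.82 and 0.78) and its copy Rps27rt (0.78 and 0.72), whose reads may be split by the counting. Rplp0 and Rps27 thus differed between the B lineage types in opposite directions in both libraries.

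NK-like cells had 0.516 (0.512 to 0.519) times the share of naive-like T cells in the mutant and 0.429 (0.428 to 0.431) times in the wildtype library. By the 1.2-fold rule 81 members were lower (15.7% of all measured genes) and 1 was higher (37.8% of all measured genes). Of the genes with at least 1000 UMIs, 39.8% were lower, which included 81 of 81 members and 135 of 462 other genes, and 29.8% were higher, with 0 of the members. Rps19 had 4379 against 13319 CPM in the mutant and 3369 against 13207 in the wildtype library, ratios of 0.33 and 0.26. Rpl12, a protein at the base of the stalk, had the same ratios. Rpl10 (0.81 and 0.69) and Rpl36al (0.83 and 0.80) differed less. The higher member was Rps27l, with 262 against 124 CPM and 240 against 100 CPM.

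Monocyte-like cells had 0.445 (0.441 to 0.450) and 0.451 (0.447 to 0.455) times the share of naive-like T cells, with 79 members lower (28.4% of all measured genes) and 2 higher (29.5% of all measured genes), Rps27l and Rpl7l1. Rpl7l1 had only 15 mutant and 17 wildtype UMIs in monocyte-like cells. Of the genes with at least 1000 UMIs, 47% were lower, which included 79 of 81 members and 172 of 453 others, and 25.8% were higher, with 0 of the members. Rpl12 was lowest, at 394 against 2048 CPM in the mutant and 451 against 2276 in the wildtype library, ratios of 0.19 (0.157 to 0.233) and 0.20 (0.164 to 0.238). Rpl36a (0.33 and 0.28), Rplp1 (0.31 and 0.31), Rps20 (0.30 and 0.35) and Rps15a (0.32 and 0.33) had the next lower ratios, in an order that was not the same in the libraries. Rpl36al (0.90 and 1.0) and Rpl10 (0.87 and 0.84) stood at nearly the level of naive-like T cells, as shares of ribosomal protein UMIs 2.02 and 2.21 and 1.95 and 1.87 times as high.

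A finer clustering separated monocytes led by Ear2, of the non-classical kind, from a cluster led by Lyz2 and Chil3. The cluster led by Lyz2 also had Retnla and Cd209a among its leading genes. At resolution 1.0 these lead an unnamed cluster (39 mutant and 26 wildtype cells), so the cluster led by Lyz2 may not be classical monocytes alone. Mutant value first, the shares were 16.3% and 17.1% where Ear2 led (52 and 73 cells). They were 18.2% and 18.5% where Lyz2 led (66 and 49 cells). In each library the cluster led by Ear2 had the lower share.

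**Figure D3:**
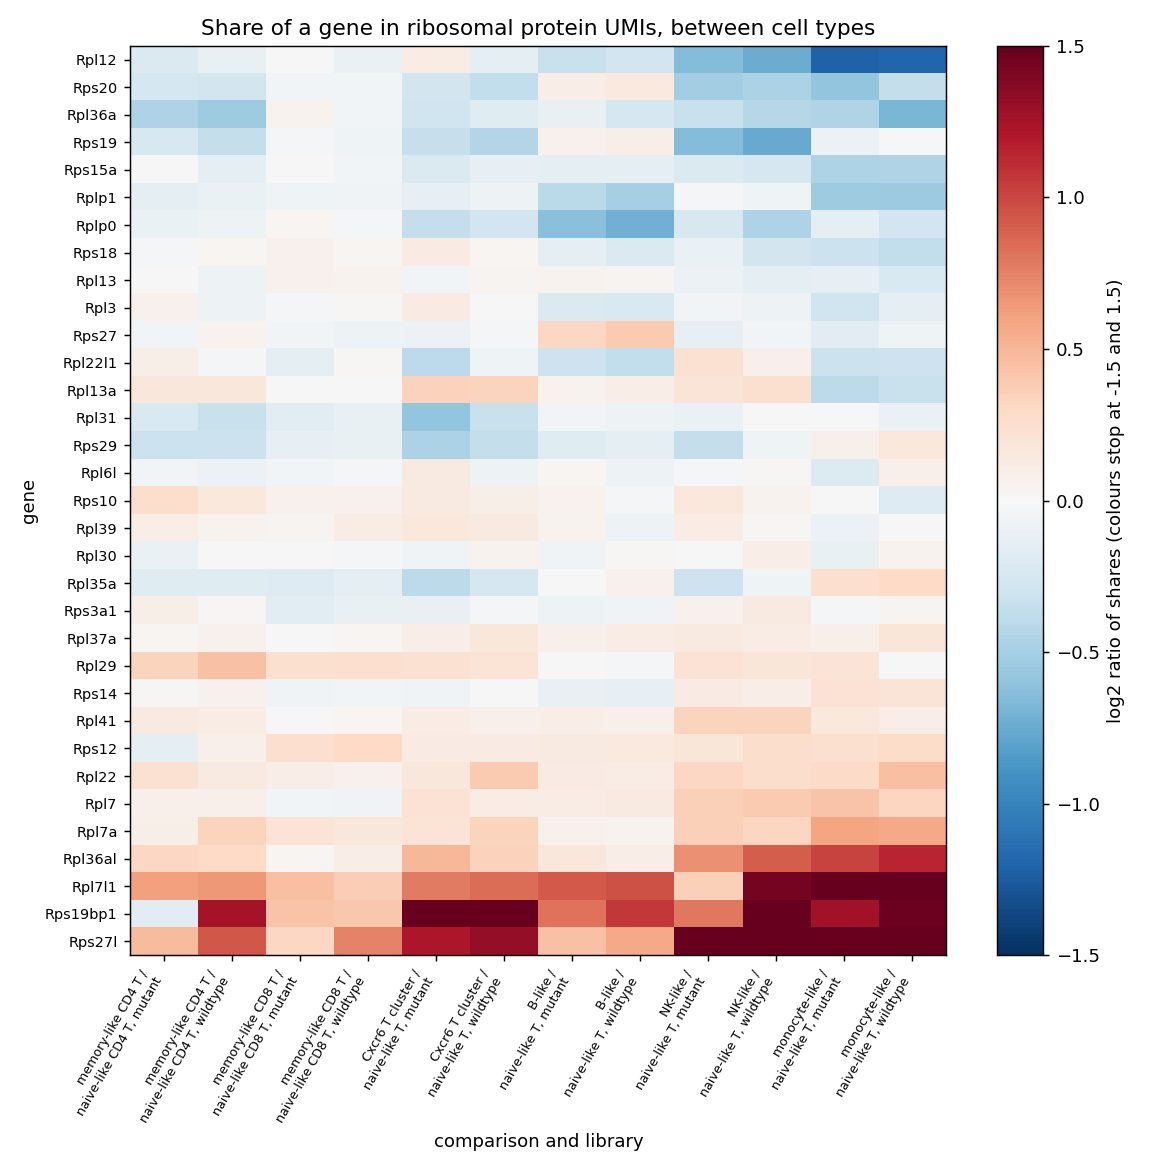
Ratio of each plotted member's share of ribosomal protein UMIs between 2 cell types, as log2 (colour; red higher, blue lower in the first type), for 6 comparisons in each library. The columns of the 2 libraries look alike within a comparison; Rps27l is at the red end and Rpl12 at the blue end in NK-like and monocyte-like cells.

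Members were also split by the run at their annotated start. Annotated starts can be several bases off, so members without the run here may still carry the motif. The split therefore cannot show what part the motif has in these comparisons. In monocyte-like cells the 30 members with a C and T run at the start had a median ratio of CPM to naive-like T cells of 0.425 in the mutant against 0.430 in the wildtype library. The 33 members with an entry but without the run had 0.439 and 0.482. In memory-like against naive-like CD4 T cells the medians were 0.732 and 0.740 with the run and 0.748 and 0.745 without. In Zbtb32-marked against B-like cells they were 1.15 and 1.13 with and 1.21 and 1.19 without. The medians with the run were the lower ones in both libraries in 6 of the 7 comparisons of types, by far less than the range among members. In the Cxcr6 cluster against naive-like T cells they were 0.668 and 0.661 with the run and 0.651 and 0.665 without, so the mutant library went the other way.

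Paralog pairs shifted between cell types. Rpl22 is needed for the development of T cells with an alpha beta receptor, and its paralog Rpl22l1 can take its place in the ribosome. Rpl22l1 gave 63.7% and 62.6% of the pair's UMIs in naive-like CD4 T cells, 65.2% and 63.1% in naive-like CD8 T cells and 63.2% and 59.8% in NK-like cells. Its part was lower in B-like cells (57.2% and 54.8%), in Zbtb32-marked B lineage cells (51.0% and 49.8%) and in monocyte-like cells (54.0% and 50%). It was also lower in the Cxcr6 T cluster (55% and 55.2%), for whose name no T cell marker was required. The 95% intervals of naive-like CD4 T cells (62.6 to 64.8 and 61.6 to 63.6) and of Zbtb32-marked cells (48.8 to 53.2 and 47.1 to 52.6) did not overlap. Of the Rpl22l1 windows 50.5% are shared with another gene, so the split within the pair carries that uncertainty.

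Rpl36al is an autosomal paralog of the X-linked Rpl36a. It gave 21.9% and 22.3% of the pair in naive-like CD4 T cells, 32.4% and 33.7% in memory-like CD4 T cells, 35.5% and 40.4% in NK-like cells and 42.8% and 49.0% in monocyte-like cells. The level of Rpl36al itself stayed between 641 and 875 CPM over the 9 types and both libraries, while Rpl36a ranged from 887 to 3324 CPM. Both genes share most of their windows with pseudogenes, 60.1% for Rpl36al and 100% for Rpl36a. Neither printed start holds the C and T run searched for.

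Rps27l, a paralog of Rps27 known as a target of p53, was a small part of its pair in every one of the 9 types and largest in monocyte-like cells. It gave 0.71% and 0.56% of the pair's UMIs in naive-like CD4 T cells, 3.04% and 3.13% in NK-like cells and 5.44% (4.48 to 6.52) and 4.06% (3.25 to 5.01) in monocyte-like cells. As a level it had 405 CPM in monocyte-like cells of the mutant and 326 in those of the wildtype library, against 124 and 100 in naive-like T cells. The ratios were 3.28 (2.64 to 4.03) and 3.26 (2.55 to 4.11). Free RNA held it at 157 and 137 CPM, and the levels in naive-like T and B-like cells were below these values. They describe the make-up of free RNA and not the amount it adds to a cell. They therefore do not show the levels in these cells to be background. It was seen in 68.8% and 46.9% of monocyte-like cells (median 2699 and 2114.5 UMIs per cell) and in 16.4% and 15.8% of B-like cells (1515 and 1543 UMIs). None of its windows is shared with another gene.

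Rpl7l1, a relative of Rpl7, gave 2.07% and 2.09% of its pair in naive-like CD4 T cells and 4.26% and 5.09% in monocyte-like cells, with levels of 28.9 to 66.7 CPM over the 9 types. Rpl39l had at most 2 UMIs in any of the 9 types, and Rpl10l had none in any cell.

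Rpl3l, known as the form of Rpl3 in heart and skeletal muscle, was below the minimum of 50 UMIs, and nearly all of its UMIs came from monocyte-like cells. These had 15 UMIs in each library, in 14 of 93 mutant (15.1%) and 13 of 98 wildtype cells (13.3%). All other cells had 1 UMI in 4028 mutant and 2 in 4994 wildtype cells. In monocyte-like cells Rpl3l stood at 55.7 and 58.9 CPM, equal to 2.62% (1.47 to 4.28) and 2.35% (1.32 to 3.85) of its pair, and free RNA held it at 7.59 and 2.17 CPM. At the finer clustering, which assigns cells anew, the cluster led by Ear2 had 13 and 15 Rpl3l UMIs and the cluster led by Lyz2 had 2 and 1.

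Rpl3l lies at chr17:24727820-24736143 on the plus strand of GRCm38, and the next gene downstream, Msrb1 on the same strand, begins 498 bases after its end, at 24736642. Msrb1 had 1379 and 1130 CPM in monocyte-like cells and 53.2 and 53.5 in all others. In the cluster led by Ear2 it had 1529 and 1144 CPM and in that led by Lyz2 694 and 578. Ndufb10, the neighbour on the other side and on the minus strand, had 230 and 177 CPM in monocyte-like and 192 and 195 in all other cells. On the same scale Rpl3l had 108 and 96.4 CPM in the cluster led by Ear2. In that led by Lyz2 it had 6.74 and 4.82 CPM. Msrb1 was thus higher where Rpl3l was higher, but differed less between these clusters. The part of Msrb1 in the Rpl3l counts was not tested.

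**Figure D4:**
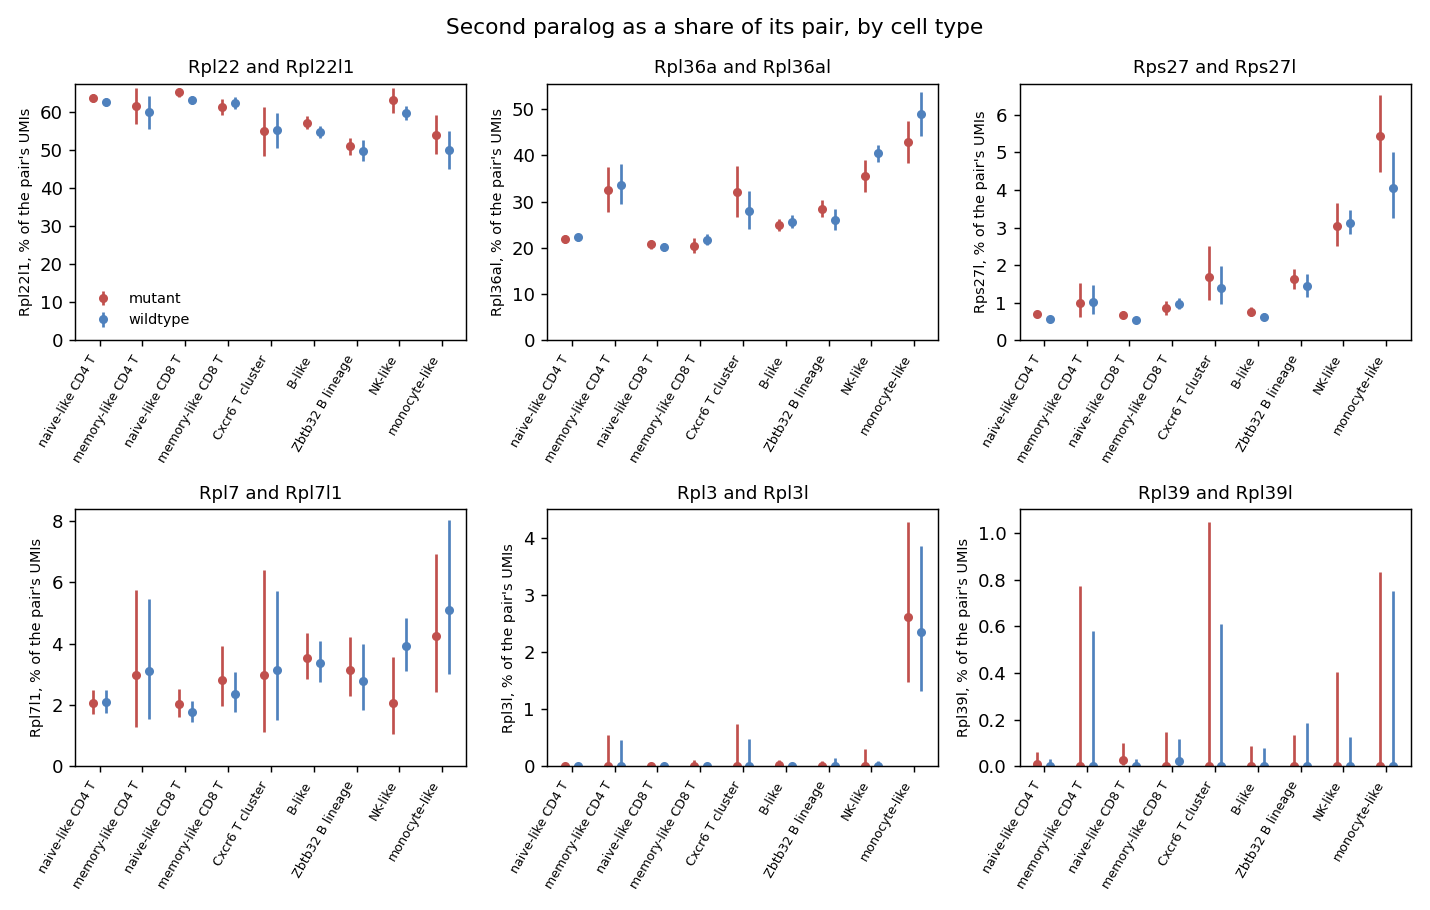
The second gene of each of 6 paralog pairs as a percentage of the pair's UMIs (vertical axis, starting at 0) in the 9 cell types, mutant in red and wildtype in blue, with exact 95% intervals for counting error. Rpl36al, Rps27l and Rpl3l have their highest parts in monocyte-like cells (42.8% and 49.0%, 5.44% and 4.06%, 2.62% and 2.35%).

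Between the libraries, the ribosomal protein share of the mutant was slightly lower in naive-like T, B-like and monocyte-like cells and higher in NK-like cells. The ratio of the mutant to the wildtype share was 0.970 (0.967 to 0.972) in naive-like CD4 T, 0.960 (0.957 to 0.963) in naive-like CD8 T, and 0.955 (0.951 to 0.959) in B-like cells. It was 0.983 (0.971 to 0.995) in memory-like CD4 T cells, where it crossed to 1.03 with types assigned cell by cell, 0.948 (0.934 to 0.961) in the Cxcr6 cluster and 0.948 (0.936 to 0.961) in monocyte-like cells. Zbtb32-marked cells had a ratio of 1.0 (0.994 to 1.01). Memory-like CD8 T cells had 1.01 (1.01 to 1.02), which became 0.954 at the finer clustering, where only the clusters led by Gzmm and by Gzmk were named memory-like CD8 T. The transitional-like B cells, with fewer cells, had the higher share in the mutant library (19.6% against 19.0%). With 1 library per genotype there is no measure of how much 2 pools of the same genotype differ.

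By depth, the mutant share was the lower one of naive-like CD4 and naive-like CD8 T cells at 800 to 1500, at 1500 to 2500 and from 2500 UMIs up. In B-like cells the shares were 25.5% and 27.1% at 800 to 1500 UMIs and 26.5% and 27.6% at 1500 to 2500 UMIs. From 2500 UMIs up they were 28.1% in each library (47 mutant and 78 wildtype cells), so the gap was not seen there. In monocyte-like cells the mutant share was lower from 1500 UMIs up and not at 800 to 1500 UMIs (17.0% in 5 mutant and 16.8% in 9 wildtype cells).

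At the finer clustering the naive-like CD4 T clusters had mutant and wildtype shares of 36.9% and 38.3% where Ly6c1 led (258 and 589 cells) and 34.9% and 36.5% where Izumo1r led (196 and 374 cells). An unnamed cluster led by Pdlim4, with Cd4 among its leading genes, had 37.5% and 40% (584 and 139 cells). In the B cell cluster led by Vpreb3, a gene of immature B cells, the shares were 21.6% in 266 mutant and 22.1% in 78 wildtype cells. The other B-like clusters lay between 26.5% and 26.7% in the mutant and between 27.2% and 27.7% in the wildtype library. The mutant share was the lower one in each of these clusters. For cells led by Vpreb3 this is the opposite of the transitional-like B cells of the coarser clustering (142 mutant and 44 wildtype cells). In the finer Zbtb32 cluster the shares were equal, 31.4% in each library.

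NK-like cells had a ratio of 1.15 (1.15 to 1.16), from 19.4% in 192 mutant and 16.8% in 884 wildtype cells. Their median depth was 2011.5 UMIs in the mutant against 1646.5 in the wildtype library, and their erythroid marker RNA 11850 and 274 CPM. Among cells with 800 to 1500 UMIs the shares were 17.3% in 25 mutant and 14.3% in 301 wildtype cells, and at 1500 to 2500 UMIs 18.4% (124 cells) and 16.4% (489 cells). From 2500 UMIs up they were 21.7% (43 cells) and 21.3% (94 cells), so the gap was smallest there. A finer cluster led by Gzma and Cma1, with 115 mutant and 645 wildtype cells, had 18.3% and 15.7%. The NK cluster led by Xcl1 and Tnfrsf9, with 77 and 240 cells, had 21.0% and 19.3%. The mutant share was higher in each of these subsets.

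In NK-like cells 77 of the 84 members had a ratio above 1, against 2038 of all 4624 measured genes. At least 1.2-fold higher in the mutant library were 21 members, where 16.5% of all measured genes were. This count became 38 under median-of-ratios scaling and 8 with cells of at least 1500 UMIs. The share of all genes under these 2 settings is not given here, so these counts have no background beside them. Among genes with at least 1000 UMIs in both libraries together 12.1% were higher, namely 21 of 81 members and 14 of 208 others, and 9% lower, with 0 of the members. Among the highest was Rplp0, with 3386 CPM in the mutant against 2497 in the wildtype library (ratio 1.36, 1.28 to 1.44). Rps19 had 4379 and 3369 CPM and Rps18 4749 and 3645 CPM, each a ratio of 1.30. As a share of ribosomal protein UMIs Rplp0 was 1.17 times as high in the mutant library. Rps29 was among those below 1, with 4186 and 4385 CPM (0.955, 0.905 to 1.01). The 2 members at least 1.2-fold lower (25.2% of all measured genes were) were Rpl7l1 with 12 and 81 UMIs and Rps19bp1 with 13 and 71 UMIs, and the counting intervals of both include 1.

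In monocyte-like cells 9 members were at least 1.2-fold lower in the mutant library, where 20.5% of all measured genes were, so the members' part (9 of 82 measured) was below the background. The count was 14 after thinning each cell to 800 UMIs and 5 with types assigned cell by cell, settings for which the share of all genes is not given here. With at least 1000 UMIs in both libraries together 4.88% of genes were lower, among them 1 of 40 members, Rplp2 (0.798), and 7.32% were higher, with 0 of the members. The lowest were Rpl6l, with 386 CPM in the mutant against 573 in the wildtype library (0.674, 0.519 to 0.873), Rpl5 with 472 and 648 CPM (0.729, 0.574 to 0.924) and Rps21 with 572 and 781 CPM (0.733, 0.590 to 0.909). Rps27l was the member that was at least 1.2-fold higher there (1.24, 0.926 to 1.67), where 18.9% of all measured genes were. These cells also carried more platelet marker RNA in the mutant (1167 CPM) than in the wildtype library (310 CPM), and its part was not tested.

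In the other 7 types 0 to 3 members passed 1.2-fold in either direction, a smaller part than of all measured genes, most of which have far fewer UMIs than the members. In naive-like CD4 T cells Rps27l (1.25) and Rps19bp1 (1.22) were higher and Rpl6l (0.823) lower, where 15% and 13.3% of all measured genes were, and 2.48% and 1.82% of those with at least 1000 UMIs in both libraries together. In naive-like CD8 T cells Rps27l (1.2) was higher (18.5% and 2.46%) and 0 members lower (12% and 1.23%). In memory-like CD8 T cells Rpl7l1 (1.2, from 34 mutant and 52 wildtype UMIs) was higher (18% and 0.957%) and 0 members lower (18.1% and 4.78%). Rps27l was thus past 1.2-fold higher in naive-like CD4 T, naive-like CD8 T and monocyte-like cells, and its ratio in free RNA was 1.15.

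Of the 82 members measured in memory-like CD4 T cells, 1 was higher and Rps12 (0.797) lower, where 19.6% and 17.4% of all measured genes were, and 0% and 1.49% of those with at least 1000 UMIs. In the Cxcr6 cluster 0 members were higher (19.8% and 2.04%) and Rpl31 (0.774), Rpl22l1 (0.787) and Rpl22 (0.794) lower (18.8% and 2.04%). After thinning to 800 UMIs 15 were lower there, and the share of all genes after thinning is not given here. B-like cells had 0 higher (18% and 2.98%) and 0 lower (14.1% and 1.63%). Zbtb32-marked cells had 0 higher (19.5% and 3.35%) and Rps19bp1 (0.518, from 23 mutant and 30 wildtype UMIs) lower (19.7% and 2.23%). Among genes with at least 1000 UMIs, 0 members passed 1.2-fold in these 4 types.

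Across the 9 types Rpl6l, a copy related to Rpl6, was below 1 in each, from 0.674 in monocyte-like to 0.962 in NK-like cells, with a counting interval wholly below 1 in 5 types. Its free RNA ratio was 0.993. Rpl41, which encodes the shortest ribosomal protein, and Rpl35 were above 1 in each, from 1.03 to 1.22 and from 1.0 to 1.23. Their ratios in free RNA were 1.18 and 1.30. The median log2 ratio of the members was -0.06 in naive-like CD4 T cells, -0.06 in naive-like CD8 T cells, -0.07 in B-like cells, -0.11 in monocyte-like and 0.20 in NK-like cells. Over all measured genes these medians lay between -0.05 and 0.04 in the 9 types.

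**Figure D5:**
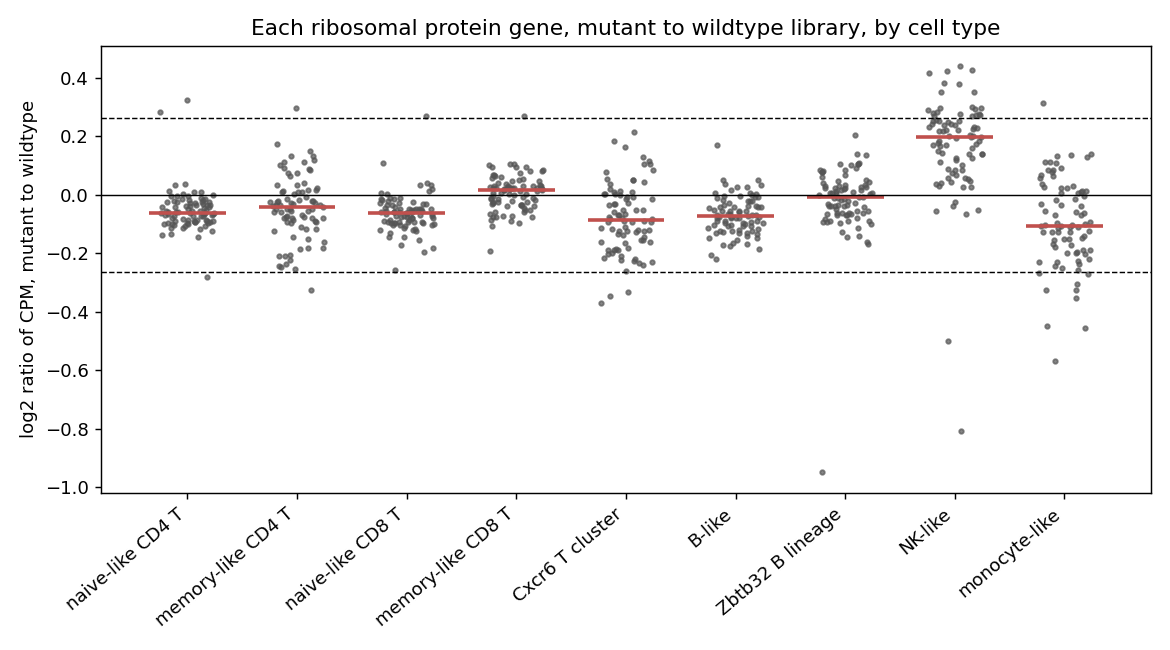
Ratio of CPM in the mutant to the wildtype library for each measured ribosomal protein gene (log2, vertical axis) in the 9 cell types; each point is a gene, red lines are medians, and dashed lines mark 1.2-fold. The median is -0.06 in naive-like CD4 T and 0.20 in NK-like cells, the highest of the 9 types.

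Other genes of protein synthesis were summarised by lists. The 19 translation factors (such as Eef1a1 and Eef2, which carry the elongation cycle) had median log2 ratios of -0.18 and -0.21 in memory-like against naive-like CD4 T cells, with 8 and 7 of the 19 at least 1.2-fold lower, where 20.1% and 19.7% of all measured genes were. In NK-like against naive-like T cells their medians were -0.58 and -0.80, and in monocyte-like cells -0.68 and -0.85. They were on the side of the ribosomal protein genes in these comparisons, and nearer to 0. In Zbtb32-marked against B-like cells the factors had 0.28 and 0.27 and the members 0.25 and 0.24.

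Genes of ribosome biogenesis (32 listed, among them the nucleolar proteins Ncl and Npm1) had medians of -0.34 and -0.15 in memory-like against naive-like CD4 T cells and -0.93 and -0.37 in monocyte-like against naive-like T cells. Medians are over measured genes only, here 24 and 26 for the CD4 types and 28 and 29 for monocyte-like cells. Of the 77 genes of the mitochondrial ribosome 65 and 70 were measured for memory-like CD4 T cells, with medians of 0.11 and 0.37. For NK-like cells 72 and 74 were measured, with medians of 0.08 and 0.29, where all measured genes had 0.20 and 0.32. Of the 19 genes of the mTORC1 and LARP1 axis 12 and 13 were measured for memory-like CD4 T cells. Their medians were 0.26 and 0.20, where all measured genes had 0.23 and 0.25. Between the libraries the translation factors of NK-like cells had a median of 0.16 (-0.05 over all measured genes), with 3 of the 19 at least 1.2-fold higher, a part near that of all measured genes (16.5%). The mTORC1 and LARP1 genes had 0.33 in naive-like CD8 T cells (0.04 over all measured genes), with 9 of 15 measured at least 1.2-fold higher, where 18.5% of all measured genes were. This was the highest median of that list over the 9 types, and it was 0.03 in naive-like CD4 T, -0.08 in memory-like CD8 T and -0.23 in NK-like cells. Of the 10 S6 kinase genes, which the symbol rule leaves out, few reached 50 UMIs in a comparison, and their medians changed sign with the settings.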

How the data were processed

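Blood mononuclear cells of 3 pooled mice per genotype were measured in 1 library each. The deposited values are UMI counts per gene and barcode, whole numbers with no normalization, for 27998 genes and the complete list of 737280 barcodes. Per the submitters' processing notes the authors used Cell Ranger 2.1.1 and mm10; how reads shared by several genes were counted is not given in the sources used here.

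Barcodes with at least 800 UMIs, at least 200 genes and at most 10% mitochondrial UMIs were kept as cells (4190 mutant and 5225 wildtype). Scrublet in scanpy 1.11.5 scored doublets. Its automatic threshold marked 0.0716% of the mutant cells, so a score above 0.2 was used, which removed 69 mutant (1.65%) and 133 wildtype cells (2.55%). Cells were clustered together without ribosomal protein genes (counts scaled to 10000, 2000 variable genes, 30 components, 15 neighbours, Leiden resolution 1.0, without integration). Cluster names needed 3 or more genes of a marker set among the 30 leading genes. The Cxcr6 and Zbtb32 groups are called by a leading gene. For the Cxcr6 group the name needed only Cxcr6 among the 10 leading genes and neither Cd8a nor Cd8b1 among the 30, so no T cell marker was required. The finer clustering used resolution 2.0.

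UMIs were summed per type and library, and total depth was 14513059 mutant and 15385199 wildtype UMIs over all barcodes. CPM is a gene's UMIs scaled to a common total, and all naive-like T cells are the CD4 and CD8 types together. Genes counted as measured with at least 50 UMIs in the compared sums, and 0.5 UMI was added for medians and for counts past 1.2-fold. Intervals are 95% Clopper-Pearson, or exact conditional for ratios (scipy 1.17.1, numpy 2.4.6, Python 3.11.15), and cover counting error only. The ratios of CPM were tested on simulated data. Shares of 3′ windows came from reference transcripts.

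Members and lists were chosen with earlier results of these data known. Named by rule were the 10 highest members, the paralogs, the 3 highest and 3 lowest members of each main comparison of types by share of ribosomal protein UMIs, and the extremes between libraries. Other members were picked after their values were seen, and some members that the rule names are not reported here. Alternatives covered cell filters, doublets, clustering, cell-by-cell types, free RNA, depth, weighting, mitochondrial genes, scaling and low counts.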

Additional observations from a re-analysis of the deposited data

Results flagged for a closer look

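The ratio of the mutant to the wildtype share of ribosomal protein UMIs lay on opposite sides of 1 in NK-like cells and in 4 other types. It was 1.15 in NK-like cells, against 0.970 in naive-like CD4 T, 0.960 in naive-like CD8 T, 0.955 in B-like cells and 0.948 in the monocytes. Each value compares 1 library with 1 library, and the difference between the types was not tested.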

How the results depend on the processing

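Under 13 alternatives, 10753 values were recomputed, 9034 stayed within their spread or within 1.5 times a count, and 18 changed direction. No paired analysis was possible because each genotype had 1 library. At resolution 0.5 and without doublet removal no cluster was named naive-like CD8 T, and cell-by-cell naming gave no Cxcr6 or Zbtb32 group, so comparisons that need them have no value there. The cause of the shifts below was not tested.

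The mutant to wildtype ratio of the share moved to 0.96 and 0.97 in naive-like CD4 T, 0.97 in naive-like CD8 T, 0.91 and 0.97 in the Cxcr6 cluster, and 0.93, 0.95, 0.96 and 0.97 in B-like cells. It moved to 0.98 and 0.99 in monocyte-like, 0.99 and 1.01 in Zbtb32-marked, and 1.11, 1.14, 1.16 and 1.17 in NK-like cells. It crossed 1 in memory-like CD4 T (0.93, 0.96, 0.97 and 1.0, and 1.03 cell by cell) and memory-like CD8 T cells (0.95, 1.0 and 1.04).

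Between types, mutant library first, the ratio of shares moved to 0.71, 0.72, 0.75, 0.80 and 0.81, and to 0.69, 0.71, 0.73, 0.74, 0.76, 0.77 and 0.79, for memory-like against naive-like CD4 T cells. For the CD8 types it moved to 0.92, 0.93, 0.95 and, cell by cell, 1.04, and to 0.88, 0.90, 0.92, 0.93 and 1.0. Against naive-like T cells it moved to 0.62 and 0.65, and 0.63, 0.64 and 0.66, in the Cxcr6 cluster, and to 0.67, 0.69, 0.70 and 0.71, and 0.69, 0.70 and 0.71, in B-like cells. In NK-like cells it moved to 0.49, 0.50 and 0.51, and 0.41, 0.42, 0.44 and 0.45. In monocyte-like cells it moved to 0.42, 0.44, 0.47 and, cell by cell, 0.59, and 0.43, 0.45, 0.47 and 0.58. For Zbtb32-marked against B-like cells it moved to 1.18, 1.19, 1.21, 1.22, 1.24 and 1.25, and 1.13, 1.14, 1.15, 1.16 and 1.17.

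Scaling by the median of ratios removes the median of all genes, which exceeded 0.1 in size in memory-like CD4 T (0.23 and 0.25), Cxcr6 (0.34 and 0.37), B-like (0.14 and 0.14), NK-like (0.20 and 0.32) and, in the mutant library, Zbtb32-marked cells (-0.13). With it 51 members were higher in Zbtb32-marked cells and 38 higher in NK-like cells of the mutant library, and with cells of at least 1500 UMIs 8 were. Counts of members lower in the mutant library reached 15 in the Cxcr6 cluster and 14 in monocyte-like cells after thinning to 800 UMIs. The other counts that moved took values of 0, 1, 2, 3, 5, 6 and 7. The shares of all measured genes past 1.2-fold under the alternatives are not given here, so these counts have no background beside them.

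Directions changed for the S6 kinase list (medians 0.0418, -0.15, 0.18, 0.68, -0.37, -0.17, -0.0701 and -0.0172), the mitochondrial ribosomal list in wildtype NK-like cells under median-of-ratios scaling (-0.0222), and single members. Between libraries in memory-like CD4 T cells Rps12 moved to 1.0 at resolution 0.5, and 1 other member to 1.0 after thinning. Between types Rps19bp1 moved to 1.08, 0.654 and 0.978 in memory-like CD4 T, memory-like CD8 T and B-like cells, Rpl7l1 to 0.932 in the Cxcr6 cluster and to 1.01 and 1.08 in NK-like cells, and Rpl7a to 0.824 in Zbtb32-marked cells. Rps19bp1 and Rpl7l1 have few UMIs, and their depth limits them most.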
